A study of Mus musculus with 9 samples.

Results

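Cytosolic ribosomal protein genes encode the protein parts of the ribosomes that translate nuclear mRNAs, and their mRNA levels were followed in gastrocnemius, a calf muscle, through disuse and recovery. The members were the protein-coding genes whose symbols follow the Rpl, Rps, Rplp or Rpsa pattern, without the S6 kinases, which gave 90 of the 55487 genes in the table. Of these, 77 were core ribosomal proteins (43 of the large subunit, 3 of the stalk and 31 of the small subunit), 7 were paralogues of a core gene, 5 were copies of one annotated as protein-coding, and 1, Rps19bp1, is a regulator and not a ribosomal protein. The filter on low counts kept 88 members. Rpl10l, with 2 read pairs in all libraries together, and Rpl39l, with 5, were not tested.

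The mice were wild-type males of the C57BL/6 strain per the labels, and their age was not given in the sources used here. The study's text gives the substrain as C57BL/6J, and its procedure names females instead. Control mice (n = 4 libraries) lived in normal cages, Unloading mice (n = 2 libraries) had their hindquarters lifted by the tail for 10 days so that the hind legs bore no weight, and Reloading mice (n = 3 libraries) were returned to normal cages for 1 day after such unloading. Whole muscle was taken, so RNA of blood vessels, connective tissue and immune cells was measured together with that of the fibres, and fewer cells of a type cannot be told apart from less RNA per cell.

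A ribosome holds 1 copy of most of its proteins, and cells coordinate their synthesis largely at translation: many of these mRNAs begin with a C followed by an unbroken stretch of pyrimidines, the terminal oligopyrimidine (TOP) tract, through which mTORC1 and the RNA-binding protein LARP1 control how strongly they are translated. Rpl3 sits close to the peptidyl transferase centre of the large subunit. In mature striated muscle most of its place is taken by the paralogue Rpl3l, which is known to decline when muscle grows or regenerates, while Rpl3 is the form of other tissues.

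Rpl3 and Rpl3l are told apart by their sequence. Rpl3 (ENSMUSG00000060036) lies on chromosome 15 at 80077791 to 80091868 on the minus strand and Rpl3l (ENSMUSG00000002500) on chromosome 17 at 24727820 to 24736143 on the plus strand, in the GRCm38 coordinates of the count table. The first 90 coding bases from GENCODE M21 transcripts on the same build are shown because they display how densely the coding sequences differ, with the 21 differing bases in capitals. They span 2 exons in each gene, within chr15:80082496-80083326 and chr17:24727884-24728403.
Rpl3: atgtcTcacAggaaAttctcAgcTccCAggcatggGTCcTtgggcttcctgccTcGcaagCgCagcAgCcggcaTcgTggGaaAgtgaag
Rpl3l: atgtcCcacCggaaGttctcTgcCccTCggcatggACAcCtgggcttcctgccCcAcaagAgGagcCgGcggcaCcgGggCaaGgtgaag

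Over the whole coding sequence 74.4% of 1205 aligned bases were identical, and the longest stretch that both transcripts share without a difference was 22 bases. The other pairs had 62.6% (Rpl7 and Rpl7l1), 70.2% (Rpl22 and Rpl22l1), 75.0% (Rps27 and Rps27l) and 87.7% (Rpl36a and Rpl36al) identical bases, with longest shared stretches of 11, 26, 11 and 24 bases. A read of the length that the study's methods state is longer than the longest identical stretch of each of these pairs.

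The annotated start sites of some members show a pyrimidine tract like that of TOP mRNAs. RefSeq promoters on GRCm38.p6 were at hand for 66 members, among them 57 core genes. The 5 members below are shown because their annotated start is directly followed by a pyrimidine tract, which is in capitals. Rpl3l is shown beside them, by the first of its annotated starts, because no such tract stood directly at either. Most core genes with an entry also had none exactly there, and Rpl3 had no promoter entry. Each window holds 50 bases before and 30 bases after the annotated start, printed on the strand of the gene.
Rps6 (chr4:86857338-86857417, minus): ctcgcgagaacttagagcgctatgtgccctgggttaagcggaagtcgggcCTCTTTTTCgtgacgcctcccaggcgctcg
Rpl28 (chr7:4792915-4792994, plus): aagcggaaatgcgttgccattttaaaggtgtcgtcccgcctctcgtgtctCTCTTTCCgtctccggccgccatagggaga
Rpl35 (chr2:39005102-39005181, minus): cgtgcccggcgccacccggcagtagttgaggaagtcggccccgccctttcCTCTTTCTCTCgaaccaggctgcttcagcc
Rpl38 (chr11:114668530-114668609, plus): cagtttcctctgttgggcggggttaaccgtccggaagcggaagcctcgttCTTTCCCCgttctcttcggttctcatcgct
Rplp2 (chr7:141447601-141447680, plus): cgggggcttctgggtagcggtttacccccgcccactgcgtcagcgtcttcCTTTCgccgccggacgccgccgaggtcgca
Rpl3l (chr17:24727776-24727855, plus): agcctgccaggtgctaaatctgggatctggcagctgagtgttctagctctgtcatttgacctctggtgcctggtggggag

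A C followed by at least 4 pyrimidines stood exactly at an annotated start in 13 of 57 core genes (22.8%) and in 3.01% of all 27025 genes with an entry. Within 10 bases before to 15 bases after the start, such a run was present in 34 core genes (59.6%) and in 34.4% of all genes. The printed Rpl3l window holds such a run in that range too. In the 100 bases before and 50 after the start, searched on both strands, CTTTCC was found in 42.1% of core genes and 15.1% of all genes, CTCTTT, which can overlap it, in 40.4% and 13.0%, the ETS-type motif CCGGAAGT in 15.8% and 3.47%, and the TATA-type motif TATAAA in 8.77% and 8.08%. These are matches of letters around annotated starts and not measured sites. The members lay on 20 chromosomes, with 14 on chromosome 7.

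The libraries held between 9252443 and 19612101 read pairs in genes. Members together took 1.23% to 1.33% of them in Control, 1.35% to 1.42% in Unloading and 1.41% to 1.51% in Reloading, and leaving out mitochondrial genes gave 1.38% to 1.49%, 1.497% to 1.57% and 1.51% to 1.62%. Mitochondrial genes took 9.36% to 10.6%, 9.61% to 10.1% and 6.49% to 6.75% of the counts. The 10 skeletal muscle markers summed to 160180 to 172980 CPM, counts per 1000000 read pairs, in Control, 167360 to 168540 in Unloading and 117180 to 130620 in Reloading, with 0 of them at 0. Skin keratin and cornified-layer markers, which summed to 2.31 to 4.20 CPM elsewhere, reached 297 CPM in Control 2 and 133 CPM in Reloading 1. Results that rest on these 2 libraries are therefore also given without them. No label ties the libraries of a group to separate mice, so p-values measure the spread between these libraries, which may be technical.

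Levels per length differed widely among the members. CPM, scaled with TMM factors (edgeR's trimmed mean of M-values, which set library sizes from genes that change little), were divided by the exonic length in kilobases so that genes could be compared. Highest were Rplp1 with 735, Rplp0 with 349 and Rpl4 with 320 CPM per kilobase on average over all libraries. Rplp0 and Rplp1 belong to the stalk that recruits elongation factors, and Rpl4 lines the exit tunnel. Lowest were Rps10 with 0.421, Rpl24 with 1.24 and the single-exon copy Rpl10-ps3 with 1.26. Rps10 and Rpl24 are core proteins, and 28.7% and 47.0% of their exonic bases lay in another gene. Read pairs that fall on more than 1 gene or align to several places were not counted, so the low levels of such genes need not be low mRNA. Of the 90 members, 12 had over 20 percent of their exonic bases in another gene, up to 66.2% in Rpl35 and 62.3% in Rpl23a. The 309 pseudogenes named after members held 26336 counts, against 1643079 in the members.

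Rpl3l ranked 2 of the 88 tested members in Control, with 368 ± 11.2 CPM per kilobase (SD, n = 4), 6 in Unloading with 320 ± 38.1 (SD, n = 2) and 7 in Reloading with 240 ± 10.5 (SD, n = 3). Rpl3 ranked 77 in Control with 12.6 ± 0.826, 77 in Unloading with 14.0 ± 0.427 and 70 in Reloading with 38.7 ± 1.26 CPM per kilobase. The muscle form thus had the higher level in all 9 libraries, while the gap was smallest in the 3 Reloading libraries.

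Rpl3 was the member with the largest change after reloading. Its CPM were 37.9, 42.9, 41.3 and 37.6 in the Control libraries, 43.5 and 45.4 in Unloading, and 127, 122 and 120 in Reloading. All 3 Reloading libraries stood far above the other 6, and the Unloading values lay just above those of Control. Rpl3 rose 2.76-fold in Reloading against Unloading (log2 fold change 1.47 ± 0.08 SE, edgeR adjusted p = 1.3e-08) and 3.07-fold against Control (1.62 ± 0.07 SE, edgeR adjusted p = 1.93e-10). The log2 fold change of Unloading against Control was 0.15 with an adjusted p of 0.236 in edgeR. Under the 20 alternative settings the Reloading against Unloading value lay between 1.43 and 1.72 and passed the test in 20 of them.

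Rpl3l had 586, 629, 597 and 605 CPM in Control, 482 and 571 in Unloading, and 386, 384 and 414 in Reloading. The groups did not overlap, and the order of the levels was Control, Unloading, Reloading. Unloading and Control did not pass the edgeR test (log2 fold change -0.20, adjusted p = 0.121), although they did without Unloading 2, whose value is nearer to Control (-0.33, edgeR adjusted p = 0.0395). Every fit without 1 Unloading library leaves a single one, which is assumed to vary as the libraries of the other groups do. Rpl3l fell 1.33-fold in Reloading against Unloading (-0.42 ± 0.08 SE, edgeR adjusted p = 9.89e-04) and 1.53-fold against Control (-0.61 ± 0.07 SE, edgeR adjusted p = 5.49e-06). With libraries scaled by their totals alone, the first of these was -0.17 and did not pass (edgeR adjusted p = 0.0888).

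The share of Rpl3l in the sum of Rpl3 and Rpl3l, computed within each library from counts per exonic length, does not depend on how libraries are scaled. It was 96.8%, 96.6%, 96.5% and 96.9% in Control, 95.5% and 96.0% in Unloading, and 85.4%, 85.9% and 87.0% in Reloading. Rpl3l thus exceeded Rpl3 by 27.9 to 31.1 times in Control, 21.4 to 24.3 times in Unloading and 5.85 to 6.70 times in Reloading. These sizes depend on the lengths used, the summed exonic bases of 3175 for Rpl3 and 1643 for Rpl3l. With the transcripts whose coding sequences are compared above, of 1351 and 1375 bases, the ratios were 14.2 to 15.8, 10.9 to 12.4 and 2.97 to 3.40 times, and raw counts gave 14.5 to 16.1, 11.1 to 12.6 and 3.03 to 3.47 times. The mean share fell by 9.70 percentage points from Unloading to Reloading, from 95.8% ± 0.357 (SD, n = 2) to 86.1% ± 0.824 (SD, n = 3), and the exact two-sided permutation test gave p = 0.1, the smallest that 3 against 2 libraries allow. Reloading lay 10.6 percentage points below Control, whose mean was 96.7% ± 0.158 (SD, n = 4), with an exact permutation p of 0.0286, the smallest that 3 against 4 allow. Between Unloading and Control the difference was -0.900 percentage points (exact permutation p = 0.0667, again the smallest possible). Adjusted over the 15 paralogue tests, each of these p-values became 0.136. A least-squares fit over all 9 libraries, with the number in their descriptions as a block, gave -10.7 percentage points for Reloading against Control. An exact sign-flip test on the 3 same-numbered pairs of Control and Reloading gave p = 0.25, the smallest for 3 pairs. Per transcript base the differences were -16.2 (Reloading against Unloading), -1.65 (Unloading against Control) and -17.8 percentage points (Reloading against Control), and from raw counts -16.0, -1.62 and -17.6, while the order of the libraries stayed as it was because a length rescales every library alike.

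**Figure D1:**
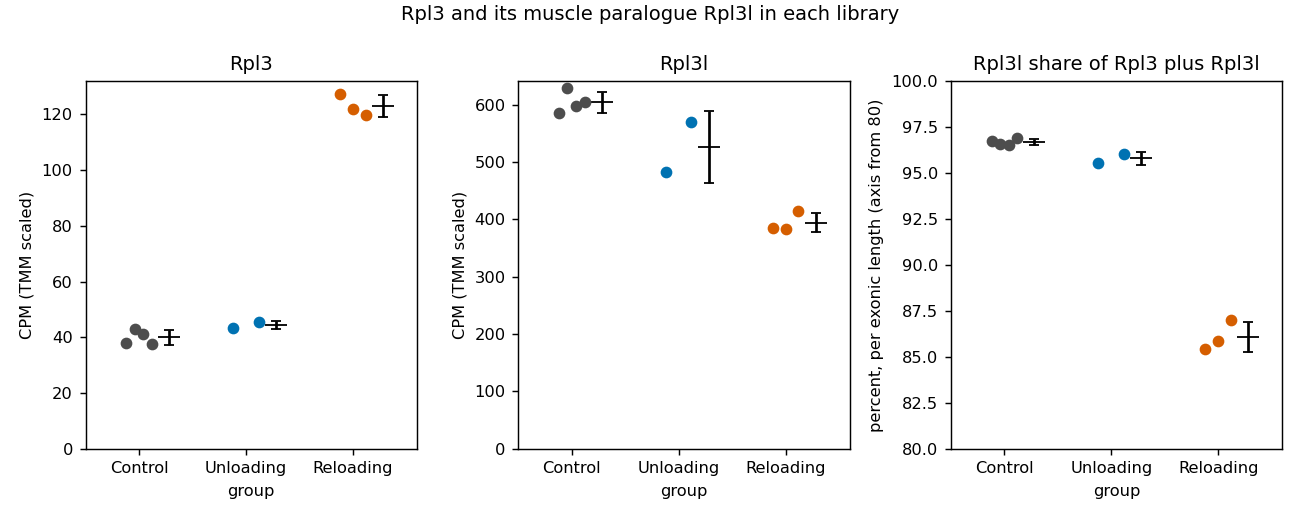
CPM of Rpl3 (left) and Rpl3l (middle) and the percent share of Rpl3l per exonic length (right, axis from 80) in each library by group; points are libraries and bars the mean ± SD. Rpl3 in Reloading (120 to 127 CPM) lies above the other 6 libraries (37.6 to 45.4), Rpl3l (384 to 414) below them, and the share is at 85.4% to 87.0%.

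The other paralogue pairs moved in different ways. Rpl36al, a single-exon relative of Rpl36a, was a low-count gene with 36, 46, 43 and 40 read pairs in Control, 27 and 37 in Unloading, and 60, 56 and 67 in Reloading. In CPM this was 4.06, 3.81, 3.07 and 3.43, then 2.02 and 2.02, then 4.84, 4.05 and 4.44. Unloading lay below both other groups, and 24.5% of the exonic bases of the gene lay in another gene. Rpl36al fell in Unloading against Control (log2 fold change -0.82 ± 0.20 SE, edgeR adjusted p = 0.0183) and rose 2.19-fold in Reloading against Unloading (1.13 ± 0.20 SE, edgeR adjusted p = 4.73e-04). The fall was not called without Unloading 1 (-0.81, adjusted p = 0.158), without Unloading 2 (-0.82, adjusted p = 0.0775) or by DESeq2 (-0.81, adjusted p = 0.0677).

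Rpl7l1, a relative of Rpl7 found in precursors of the large subunit, had 34.3, 34.7, 29.9 and 32.5 CPM in Control, 27.8 and 27.9 in Unloading, and 38.2, 37.9 and 38.2 in Reloading. Again Unloading was lowest and Reloading highest, without overlap. It rose 1.37-fold in Reloading against Unloading (0.45 ± 0.09 SE, edgeR adjusted p = 8.47e-04), and its rise against Control (0.22 ± 0.07 SE, edgeR adjusted p = 0.0229) passed in 12 of 20 alternatives. It lost the call in the other 8, which were DESeq2 (0.20, adjusted p = 0.0973), no filter on low counts (0.23, adjusted p = 0.0719), the block by title number (0.21, adjusted p = 0.0572), the fit without both libraries that hold skin transcripts (0.24, adjusted p = 0.0508), and the fits without Control 3 (0.17, adjusted p = 0.0965) and without any 1 Reloading library (0.22 each time, adjusted p from 0.0565 to 0.0631).

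Rps27l, a relative of Rps27 known as a p53 target, had 49.3 to 57.9 CPM in Control, 50.7 and 56.9 in Unloading, and 36.3, 43.7 and 42.4 in Reloading. The 3 Reloading values were below all others. It fell 1.32-fold in Reloading against Unloading (-0.40 ± 0.10 SE, edgeR adjusted p = 0.00521) and 1.33-fold against Control (-0.41 ± 0.08 SE, edgeR adjusted p = 0.0011, but -0.17 with adjusted p = 0.11 under scaling by totals). The fall against Unloading also lost the call under scaling by totals (-0.15, adjusted p = 0.245) and without Unloading 2 (-0.32, adjusted p = 0.0704). Its partner Rps27 had log2 fold changes of -0.21 and -0.20 that did not pass, and the share of Rps27l went from 35.0% ± 1.62 (SD, n = 4) in Control and 34.5% ± 2.48 (SD, n = 2) in Unloading to 31.7% ± 0.562 (SD, n = 3) in Reloading (exact permutation p = 0.0571 against Control).

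Rpl22l1 was not called in the 3 comparisons. It had 41.4 to 58.2 CPM in Control, 46.8 and 52.9 in Unloading and 40.6 to 52.3 in Reloading, which overlap. Its partner Rpl22, with 131 to 140, 155 and 148, and 111 to 122 CPM, fell in Reloading against Unloading with TMM (-0.39 ± 0.07 SE, edgeR adjusted p = 6.57e-04) and did not pass under scaling by totals (-0.14, adjusted p = 0.138). The shares of Rpl36al and Rpl7l1 in their pairs were 5.75% and 9.53% in Control, 3.22% and 7.35% in Unloading, and 7.68% and 12.2% in Reloading, each again with exact permutation p-values at the smallest possible (0.1 between Reloading and Unloading, 0.0667 between Unloading and Control, and 0.0286 between Reloading and Control, each 0.136 after adjustment).

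Reloading against Unloading asks what 1 day of renewed load does to the unloaded muscle. Of the 88 tested members, 4 were higher and 26 were lower at an adjusted p under 0.05 with TMM scaling, while 18.5% of all genes tested were higher and 19.0% were lower. At 20 CPM or more on average, 2.56% of 78 members were higher and 33.3% lower, beside 17.3% and 36.7% of 5108 genes. With library totals in place of TMM the split was 18 higher and 3 lower. Over all 14851 genes tested the calls went from 5562, 49.3% of them higher, to 6340, 82.8% of them higher. The direction of the small shifts thus depended on the scaling, and this was not particular to the members. The 4 higher members were Rpl3, Rpl36al, Rpl7l1 and Rps19bp1, of which Rpl3 is the single core protein. Among the other 76 core genes 0 were higher and 24 lower by edgeR with TMM, and their median log2 fold change was -0.13. Of these 76, 0 higher and 31 lower had an unadjusted p under 0.05, and DESeq2 called 0 and 27, but with library totals 14 were higher and 3 lower. Over all 88 tested members the median was -0.10, against 0.03 over all genes tested and -0.13 over the genes with at least 20 CPM. The spread was narrow, with 50 percent of the members between -0.23 and -0.02, and 50 percent of all genes between -0.28 and 0.40.

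By subunit, 13 of 46 large subunit and stalk genes and 11 of 31 small subunit genes were lower, with medians of -0.10 and -0.14. Without Reloading 1 the number of lower members was 16, while calls over all genes went from 5562 to 4585. Without both libraries that hold skin transcripts it was also 16, with 4628 calls over all genes. A fit without Unloading 1 leaves a single Unloading library. It gave fewer calls among the members and over all genes alike, with a member median of -0.12.

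Rps14, a core protein of the small subunit near the mRNA path, had 216, 227, 218 and 227 CPM in Control, 298 and 292 in Unloading, and 183, 192 and 199 in Reloading. Unloading stood above and Reloading below the Control range. Its log2 fold change was -0.62 ± 0.07 SE between Reloading and Unloading (edgeR adjusted p = 9.84e-06), 0.41 ± 0.07 SE for Unloading against Control (edgeR adjusted p = 0.00234) and -0.21 ± 0.06 SE for Reloading against Control (edgeR adjusted p = 0.009). The last of these was 0.03 with adjusted p = 0.735 under scaling by totals, and -0.17 with adjusted p = 0.0787 without both libraries that hold skin transcripts.

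Rpl30, a small protein at the subunit interface, followed the same order of groups. It had 119, 119, 108 and 112 CPM in Control, 150 and 135 in Unloading, and 92.2, 104 and 106 in Reloading. The log2 fold changes were -0.50 ± 0.08 SE (Reloading against Unloading, edgeR adjusted p = 2.95e-04), 0.32 ± 0.08 SE (Unloading against Control, edgeR adjusted p = 0.0211) and -0.19 ± 0.07 SE (Reloading against Control, edgeR adjusted p = 0.0474). The value against Control sat at the threshold: it passed in 9 of 20 alternatives, was -0.16 with adjusted p = 0.0741 when libraries were paired by description number, -0.13 (adjusted p = 0.21) without Reloading 1, -0.21 (adjusted p = 0.0663) without Reloading 2, between -0.17 and -0.19 (adjusted p from 0.0655 to 0.0988) without Control 1, Control 2 or Control 4, and 0.05 under scaling by totals. Rps14 and Rpl30 were the 2 members called in all 3 comparisons. These comparisons share libraries, so their values are set side by side and not read as separate evidence.

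Rpl23a, which lines the exit of the tunnel, had 69.9 to 83.7 CPM in Control, 88.9 and 89.9 in Unloading and 60.0 to 64.3 in Reloading, with no overlap. It fell 1.43-fold in Reloading against Unloading (-0.51 ± 0.08 SE, edgeR adjusted p = 2.2e-04). Rpl21 had 131 to 136, 176 and 165, and 120 to 134 CPM, and fell 1.33-fold (-0.41 ± 0.07 SE, edgeR adjusted p = 5.14e-04), but not under scaling by totals (-0.16, adjusted p = 0.0916). Rps19bp1, an activator of the deacetylase Sirt1 that binds Rps19, had 6.20 to 7.29, 5.76 and 7.76, and 9.93 to 10.6 CPM, and rose 1.51-fold (0.59 ± 0.14 SE, edgeR adjusted p = 0.00456). Without Unloading 1 its value was 0.41 and did not pass (adjusted p = 0.0704).

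**Figure D2:**
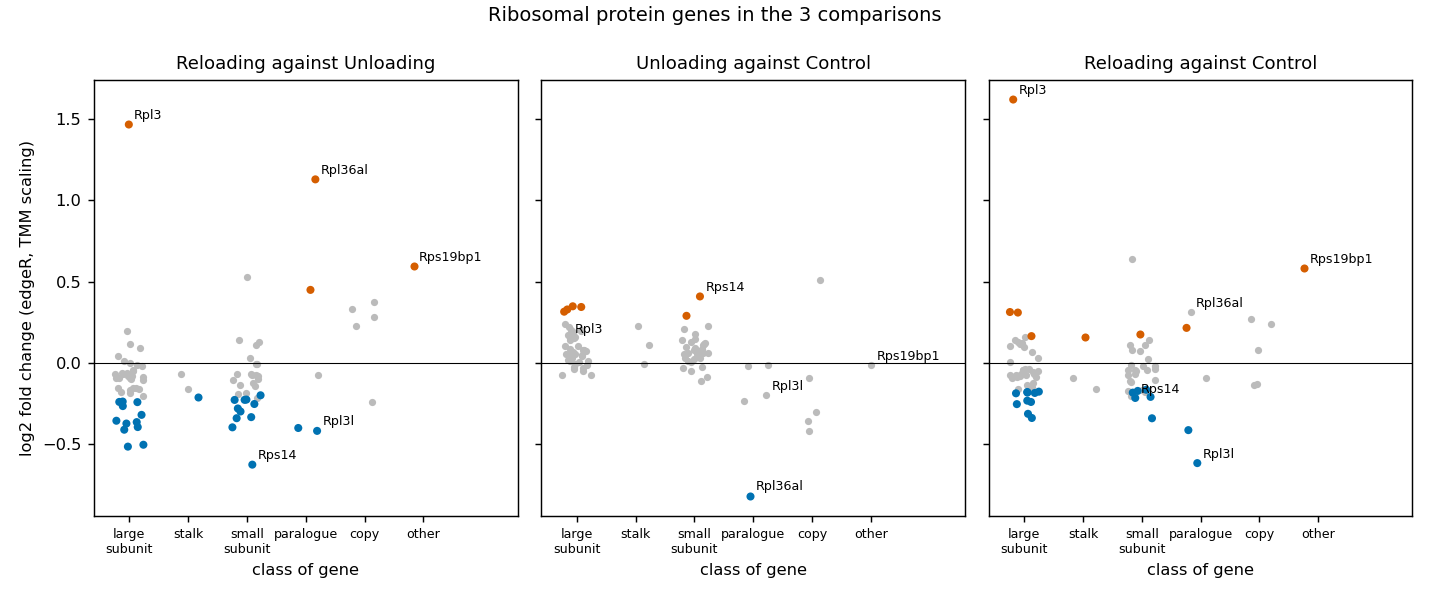
Log2 fold change (edgeR, TMM scaling) of the 88 tested members by class in the 3 comparisons; orange points are higher and blue points lower at an adjusted p under 0.05, grey points are not called. Rpl3 stands alone above the core genes at 1.47 and 1.62 in the comparisons with Reloading, while most core genes lie slightly below 0, a direction that scaling by library totals turns.

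**Figure D3:**
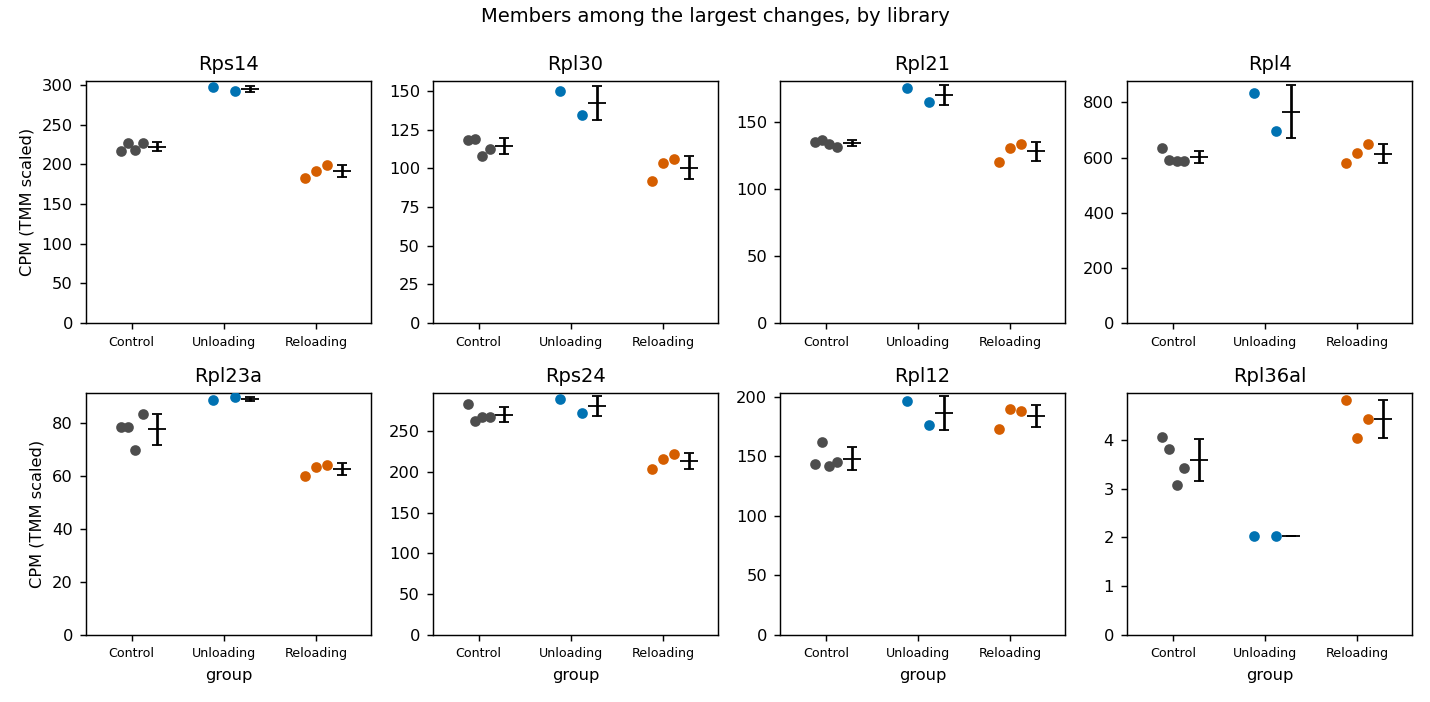
CPM with TMM scaling of 8 members in each library by group, with the mean ± SD beside the points and axes from 0. Rps14, Rpl30 and Rpl21 are highest in both Unloading libraries, Rps24 is lowest in Reloading, Rpl12 is low in Control, and Rpl36al is lowest in Unloading at 2.02 CPM.

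Unloading against Control asks what 10 days of disuse changed. Of the 88 tested members 6 were higher and 1 was lower, while 4.40% of all genes tested were higher and 5.50% were lower, and of genes with at least 20 CPM 8.59% and 8.87%. The higher members were Rps14 (0.41), Rpl4 (0.35), Rpl21 (0.35), Rpl12 (0.33), Rpl30 (0.32) and Rps4x (0.29) on the log2 fold change scale, all core proteins, and Rpl36al was the lower one. The median of all members was 0.06, and that of all genes tested was -0.0038. Without Unloading 1 a single member was called, and over all genes the calls went from 1470 to 121, so the drop was not particular to the members. Without Control 3, 4 members were called.

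Rpl4 had 635, 592, 589 and 589 CPM in Control, 835 and 698 in Unloading, and 579, 616 and 648 in Reloading. Both Unloading libraries exceeded the others, and Unloading 1 was much the higher of the pair (log2 fold change 0.35 ± 0.08 SE, edgeR adjusted p = 0.014, but 0.22 with adjusted p = 0.29 without Unloading 1). Rpl12, a protein at the base of the stalk, had 143, 162, 142 and 145 CPM in Control, 196 and 176 in Unloading, and 173, 190 and 188 in Reloading. It was higher than Control after both treatments, with log2 fold changes of 0.33 ± 0.08 SE (edgeR adjusted p = 0.0169) for Unloading and 0.31 ± 0.07 SE (edgeR adjusted p = 0.0022) for Reloading. Without Unloading 1 the first value was 0.25 (adjusted p = 0.251), and without Control 3 it was 0.31 (adjusted p = 0.0501). Leaving out Unloading 1 also took the Unloading call from Rpl21 (0.30, adjusted p = 0.125) and Rpl30 (0.24, adjusted p = 0.285), and leaving out Control 3 took that of Rpl30 (0.29, adjusted p = 0.0637).

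Reloading against Control sets the reloaded muscle beside undisturbed muscle. With TMM scaling 8 members were higher and 18 were lower, while 22.1% of all genes tested were higher and 21.3% were lower, and of genes with at least 20 CPM 21.8% and 38.7%. With library totals the split was 45 higher and 1 lower, and with DESeq2 size factors 5 higher and 23 lower. Over all 14851 genes tested, 50.9% of 6456 calls were higher with TMM. With library totals 80.2% of 7512 calls were higher, and with DESeq2 size factors 49.3% of 6473. The member median was -0.07, beside 0.01 for all genes tested and -0.10 for genes with at least 20 CPM. Without Reloading 1 the number lower was 7, and without both libraries that hold skin transcripts it was 6. Over all genes the calls went from 6456 to 5267 and 5082 in these 2 fits. The number higher was 4 without Control 3 or without Reloading 2, and 5 without Control 4, Reloading 1, Reloading 3 or Unloading 2.

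Among called members, Rps19bp1 (0.58 ± 0.12 SE, edgeR adjusted p = 0.0013), Rpl10 and Rpl12 had the largest rises after Rpl3. Rpl10, which is joined late to the large subunit, had 223 to 236 CPM in Control, 282 and 245 in Unloading, and 289, 282 and 288 in Reloading, so that Reloading lay above Control without overlap (0.31 ± 0.06 SE, edgeR adjusted p = 9.3e-04). The largest falls among called members after Rpl3l and Rps27l were those of Rps24, Rpl26 and Rpl23a. Rps24, needed for maturation of the small subunit rRNA, had 263 to 283 CPM in Control, 289 and 273 in Unloading, and 203, 216 and 223 in Reloading, which is below all others (-0.34 ± 0.06 SE, edgeR adjusted p = 4.25e-04). Rpl26 had 149 to 158, 158 and 156, and 114 to 126 CPM (-0.34 ± 0.06 SE, edgeR adjusted p = 4.32e-04), and Rpl23a had a log2 fold change of -0.31 ± 0.07 SE (edgeR adjusted p = 0.0024). Under scaling by totals these 3 were -0.10, -0.10 and -0.07 and did not pass (adjusted p = 0.2, 0.214 and 0.41).

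Scaling matters because Reloading libraries had TMM factors of 1.11 to 1.13 and the other libraries 0.928 to 0.960. Without TMM the median log2 fold change over all genes tested was 0.27 in Reloading against Unloading and 0.25 in Reloading against Control. Relative to that median, the members stood at -0.13 with TMM, with DESeq2 size factors and with totals in Reloading against Unloading, and at -0.08 with each in Reloading against Control. A change of scaling moves nearly all genes by the same amount, so these differences had to come out alike and are no separate evidence. At 20 CPM or more, with TMM, the median in Reloading against Unloading was -0.14 for 78 members and -0.13 for 5108 genes. In Reloading against Control these medians were -0.07 and -0.10. Rpl3 rose and Rpl3l was lower in both comparisons under all 3 scalings, although the Rpl3l value in Reloading against Unloading did not pass with totals.

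**Figure D4:**
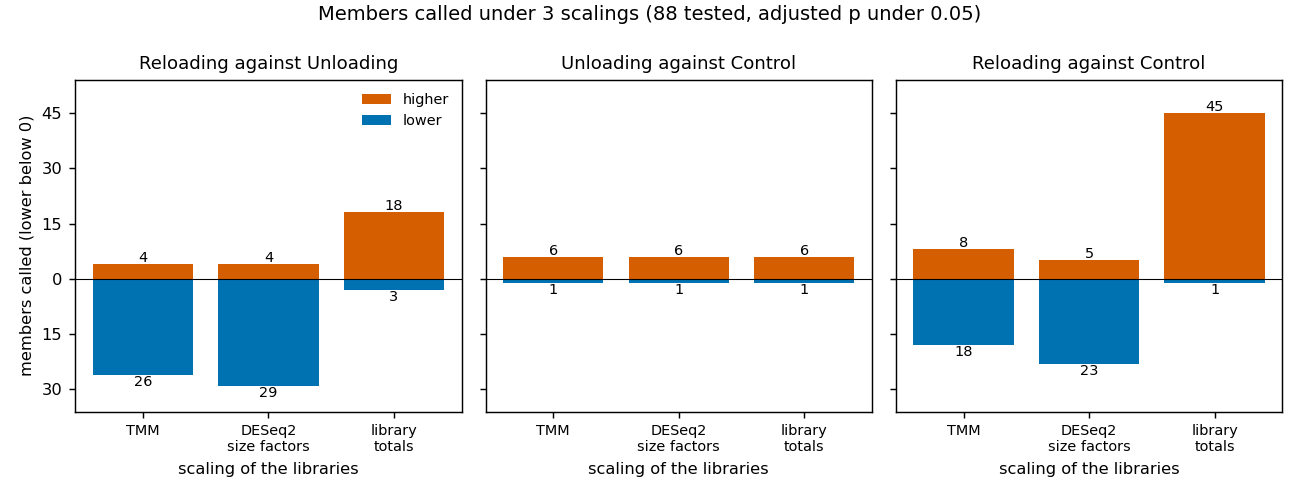
Number of the 88 tested members called higher (orange, above 0) and lower (blue, below 0) at an adjusted p under 0.05 under 3 scalings of the libraries in each comparison. Reloading against Unloading goes from 4 higher and 26 lower with TMM to 18 and 3 with library totals, Reloading against Control from 8 and 18 to 45 and 1, and Unloading against Control stays at 6 and 1. Calls over all genes turn as well: the percent higher goes from 49.3% to 82.8% in Reloading against Unloading and from 50.9% to 80.2% in Reloading against Control.

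Among the stalk proteins, Rpsa and Rps6, calls were few and small. Rplp0 had 514 to 569 CPM in Control, 653 and 606 in Unloading, and 584 to 618 in Reloading (log2 fold change 0.16 ± 0.06 SE for Reloading against Control, edgeR adjusted p = 0.0481, a call that held in 7 of 20 alternatives). Rplp1 had 356 to 376, 409 and 386, and 323 to 356 CPM, and was lower in Reloading against Unloading with TMM (-0.21 ± 0.07 SE, edgeR adjusted p = 0.038), but this held in 11 of 20 alternatives and turned to 0.04 under scaling by totals (adjusted p = 0.67), whereas Rplp2 had 159 to 185, 170 and 174, and 146 to 166 CPM and was not called. Rpsa, which doubles as a laminin receptor, had 320 to 342 CPM in Control, 375 and 353 in Unloading and 344 to 352 in Reloading, with log2 fold changes of -0.07, 0.15 and 0.07 in the order Reloading against Unloading, Unloading against Control and Reloading against Control. Rps6, the substrate of the S6 kinases, had 98.8 to 114, 108 and 106, and 115 to 119 CPM, with 0.13, 0.01 and 0.14. Rpsa and Rps6 passed no test.

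Of 2 ribosomal proteins outside the symbol pattern, Fau had log2 fold changes of -0.15 in Reloading against Unloading and -0.07 in Reloading against Control, and the scaffold protein Rack1 had -0.13 and 0.10, none past the threshold in edgeR.

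Of 28 listed ribosome biogenesis factors, 17 were higher and 0 lower by edgeR in Reloading against Unloading (median log2 fold change 0.38), 2 higher and 0 lower in Unloading against Control (0.04), and 22 higher and 0 lower in Reloading against Control (0.43). The higher ones were 60.7%, 7.14% and 78.6% of the list, beside 18.5%, 4.40% and 22.1% of all genes tested. At an unadjusted p under 0.05 the numbers lower were 1, 0 and 1, DESeq2 called 0 lower in each, and with library totals 23, 2 and 26 were higher and 0 lower. With totals 82.8%, 41.5% and 80.2% of the calls over all genes were higher too. Rrp12, which exports pre-ribosomal subunits, rose by 1.32 on the log2 scale against Unloading (edgeR adjusted p = 1.42e-07), Tsr1 by 0.86 (edgeR adjusted p = 9.28e-06), the rRNA methyltransferase Nop2 by 0.74 (edgeR adjusted p = 4.59e-05), and Myc, the transcription factor that drives many of these genes, by 0.99 (edgeR adjusted p = 0.0095). The Myc value did not pass without Unloading 2 (0.78, adjusted p = 0.113). Ncl, Npm1 and Ubtf had -0.07, -0.20 and 0.10 and did not pass.

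Other mRNAs known to carry TOP tracts leaned the same way as the core members on the TMM scale. So did all genes with at least 20 CPM in Reloading against Unloading, with 17.3% higher, 36.7% lower and a median of -0.13. Of 10 listed, 8 were lower and 2 higher in Reloading against Unloading (median -0.39). Among the lower were Eif3e at -0.54 (edgeR adjusted p = 2.04e-04) and Eif4b at -0.50 (edgeR adjusted p = 5.54e-04). The exceptions were Naca (0.36, edgeR adjusted p = 0.00332) and Pabpc1 (0.35, edgeR adjusted p = 0.00674). The Naca call was lost without Unloading 2 (0.26, adjusted p = 0.0654) and that of Pabpc1 without Unloading 1 (0.28, adjusted p = 0.0806). In Unloading against Control 2 were higher and 0 lower by edgeR (median 0.17, with 0 lower also at an unadjusted p under 0.05 and by DESeq2), and in Reloading against Control 2 were higher and 5 lower (median -0.18). With library totals the comparisons with Reloading had 2 higher and 3 lower against Unloading, and 3 higher and 1 lower against Control. Of 8 elongation genes 1, Eef1a1, was higher and 4 lower in Reloading against Unloading (median -0.23). Eef1a1, the form of most tissues, rose by 0.39 (edgeR adjusted p = 0.00726, but 0.36 with 0.0545 without Unloading 2), and Eef1a2, the form of mature muscle, had -0.20 (edgeR adjusted p = 0.117). Against Control the same pair had 0.64 (edgeR adjusted p = 2.12e-05) and -0.56 (edgeR adjusted p = 6.1e-05). The elongation counts were 1 higher and 1 lower in Unloading against Control and 1 higher and 4 lower in Reloading against Control, while library totals gave 3 higher and 1 lower against Unloading and 3 higher and 2 lower against Control. Of genes with at least 20 CPM, 8.59% were higher and 8.87% lower in Unloading against Control, and 21.8% and 38.7% in Reloading against Control.

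Of 18 genes around mTORC1, the S6 kinases and LARP1, 1 was higher and 6 lower in Reloading against Unloading (median -0.11), 1 higher and 0 lower by edgeR in Unloading against Control (0.04), and 2 higher and 4 lower in Reloading against Control (-0.07). In Reloading against Unloading this was 5.56% higher and 33.3% lower. Of genes with at least 20 CPM, 17.3% and 36.7% were higher and lower there, and 21.8% and 38.7% in Reloading against Control. These shares are the background for the chaperone and quality control lists below too. In Unloading against Control 1 was lower at an unadjusted p under 0.05 and 0 by DESeq2. Library totals turned the balance to 6 higher and 2 lower against Unloading, and 7 higher and 1 lower against Control, while 82.8% and 80.2% of the calls over all genes were higher. Mtor rose by 0.60 against Unloading (edgeR adjusted p = 5.67e-05), Rps6kb1, which encodes an S6 kinase, fell by 0.50 (edgeR adjusted p = 7.75e-04), and Larp1 had 0.08. The inhibitor Deptor was higher in Unloading (0.40, edgeR adjusted p = 0.0192) and lower in Reloading against Unloading (-0.49, edgeR adjusted p = 0.00203). The first of these did not pass without Control 3, Unloading 1 or Unloading 2 (adjusted p = 0.0503, 0.174 and 0.0655), and the second not under scaling by totals (-0.24, adjusted p = 0.0756). Of 5 dedicated chaperones of ribosomal proteins, 1 was higher and 2 lower in both comparisons with Reloading and 0 were called by edgeR in Unloading against Control, where 1 higher and 1 lower had an unadjusted p under 0.05 and DESeq2 called 0. With library totals the comparisons with Reloading had 2 higher and 1 lower against Unloading, and 3 higher and 1 lower against Control. Grwd1, the chaperone of Rpl3, was the higher one (0.62, edgeR adjusted p = 3.4e-04 against Unloading, and 0.38, edgeR adjusted p = 0.00251 against Control). Of 8 ribosome quality control genes, edgeR called 0 higher and 2 lower in Reloading against Unloading, 1 higher and 0 lower in Unloading against Control, and 1 higher and 2 lower in Reloading against Control. Where it called 0, the count was also 0 at an unadjusted p under 0.05 and by DESeq2, but library totals gave 3 higher and 0 lower in Reloading against Unloading and 4 higher and 0 lower in Reloading against Control.

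The 77 mitochondrial ribosomal proteins, a separate set that serves translation inside mitochondria, had 0 higher and 14 lower by edgeR in Unloading against Control (median -0.22), where the cytosolic members had 6 and 1. There 0 were higher and 45 lower at an unadjusted p under 0.05, and DESeq2 called 0 and 9. In Reloading against Unloading 6 were higher and 20 lower (-0.10), and in Reloading against Control 2 were higher and 50 lower (-0.29). Of genes with at least 20 CPM, 8.59% were higher and 8.87% lower in Unloading against Control. The shares were 17.3% and 36.7% in Reloading against Unloading, and 21.8% and 38.7% in Reloading against Control. With library totals the counts of the 77 genes in the comparisons with Reloading became 23 higher and 1 lower against Unloading, and 7 higher and 22 lower against Control.

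**Figure D5:**
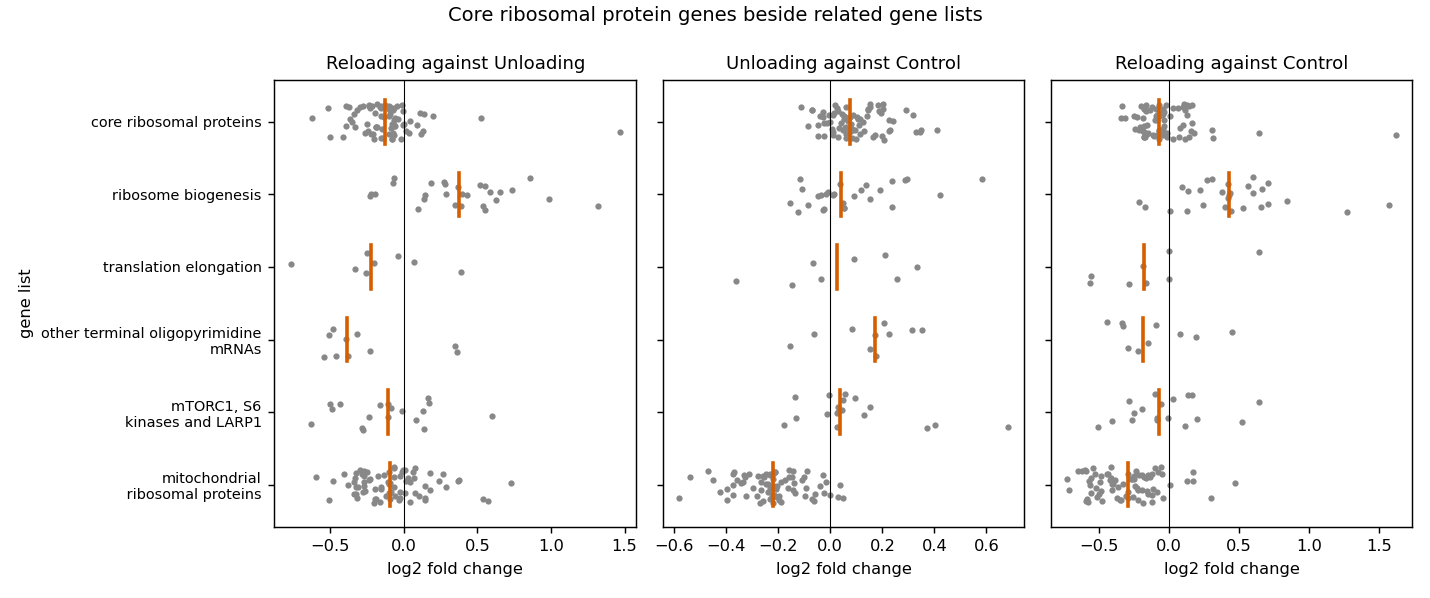
Log2 fold change with TMM scaling of each gene (points) and the median (bar) for the 77 core ribosomal protein genes and 5 related lists in the 3 comparisons. The biogenesis list is shifted to higher values in both comparisons with Reloading (medians 0.38 and 0.43), the core genes lie near 0 except Rpl3, and mitochondrial ribosomal proteins are lowest in Reloading against Control (median -0.29).

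Markers of cells other than fibres moved with Reloading too. Summed CPM of 12 macrophage markers were 93.0 to 113 in Control, 96.0 to 98.4 in Unloading and 182 to 206 in Reloading, with 10 higher in Reloading against Unloading. Those of 7 endothelium markers were 149 to 172, 145 in both and 255 to 313 (6 higher), those of the smooth muscle markers, 5 of 6 tested, 112 to 137, 97.7 to 101 and 169 to 190 (5 higher), and those of 7 fibroblast markers 539 to 841, 606 to 607 and 750 to 1012 (4 higher, 2 lower). The 7 satellite cell and myoblast markers summed to 67.9 to 78.9, 66.3 to 68.1 and 80.1 to 93.9 CPM (3 higher), and the 5 adipocyte markers to 157 to 219, 208 to 212 and 226 to 259 CPM (1 higher). Neutrophil markers, 2 of 6 tested, and lymphocyte markers, 1 of 8 tested, each summed to at most 5.75 CPM in a library. Ptprc, the tested lymphocyte marker, was higher in Reloading against Unloading (0.76, edgeR adjusted p = 0.0195), but not by DESeq2. No neutrophil marker was called. Of all genes tested, 18.5% were higher and 19.0% lower in that comparison. Erythrocyte markers at 52.0 to 173 CPM overlapped between the groups. The part of these cell types in the changes of Rpl3, Rpl3l and the other members was not tested.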

How the data were processed

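RNA was sequenced from polyadenylated RNA of 9 gastrocnemius libraries. The authors aligned reads with STAR 2.7.3a to GRCm38.p6 and counted read pairs per Ensembl gene with featureCounts 2.0.3, without strand and without multi-mapping or ambiguous pairs, and the deposited counts are raw. The labels say paired-end, whereas the study's methods say single reads. The authors also deposited DESeq2 tables per comparison with fold changes and p-values, of which the annotation columns alone were read.

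Tests on the counts used edgeR 4.0.16 under R 4.3.3 (quasi-likelihood F-test, two-sided, all 9 libraries, group as the only term, TMM, filterByExpr with a minimum count of 10 and total of 15), which left 14851 genes, with Benjamini-Hochberg adjustment over them (threshold 0.05). CPM are TMM-scaled. Paralogue shares were tested by exact permutation of libraries. Standard errors (SE) derive from the F statistic. Coding sequences were aligned with Biopython 1.88. DESeq2 1.42.0 was an alternative, as were other scalings, filters, library sets, pseudogene counts and replicate blocks. The edgeR procedure was also run on simulated counts with few changed genes, which cannot speak to the dependence on scaling.

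Members and lists were chosen with earlier results of these data known. Named genes were the paralogue pairs, the stalk, Rpsa, Rps6, Fau and Rack1, up to 5 called members with the largest change per direction and comparison, members called in all 3, and the 3 highest and 3 lowest levels per length. A result that the rule also names is not reported here. Same-numbered libraries by title deviated together with correlations of -0.20 to 0.08. By description number they were 0.36, 0.14 and 0.16 for the 3 pairs of Control and Reloading, whose first holds both libraries with skin transcripts, and 0.02 to 0.08 for pairs with Unloading, so blocked values are given for Reloading against Control.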

Additional observations from a re-analysis of the deposited data

Results flagged for a closer look

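Among members with a value in each of the 4 Control libraries, 2 values lay apart from the other 3 by Dixon's criterion, which chance alone meets in about 1 of 20 groups. Of 17 sets of values examined, Rpl12 in Control 2 had 162 CPM while the others had 142 to 145, a gap of 0.847 of the whole range. Rpl4 in Control 1 had 635 CPM while the others had 589 to 592, a gap of 0.924 of the range. Control 2 is also 1 of the 2 libraries with skin transcripts, and whether that bears on Rpl12 was not tested.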

How the results depend on the processing

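Of 580 values of single genes under an alternative, 539 kept direction and side of the threshold, 38 lost the call, 1 gained it and 2 reversed, all with the cause not tested. With library totals in place of TMM, Reloading against Unloading had 18 members higher and 3 lower, Reloading against Control had 46 called, 45 higher and 1 lower, and Rpl30 (log2 fold change 0.0541) and Rps14 (0.0258) reversed there. The median of all genes moved to 0.27 and 0.25 in those comparisons, and 82.8% and 80.2% of the calls over all genes were higher. With DESeq2 size factors 5 were higher in Reloading against Control. Without a filter on low counts Unloading against Control had 11 called, 10 higher, and Reloading against Control 13 called, 4 higher and 9 lower. The DESeq2 test gave 13 called, 13 higher and 0 lower in Unloading against Control and 4 higher in Reloading against Control. A replicate block by title number gave 3 called and 2 higher in Unloading against Control, 15 called, 4 higher and 11 lower in Reloading against Control, and an Rpl3l share difference of -10.5 percentage points there. The block by description number gave 8 higher and 15 lower in Reloading against Control, an Rpl3l share difference of -10.7, and the loss of Rpl30. Title numbers mark no shared animal. Without both libraries that hold skin transcripts 16 members were lower in Reloading against Unloading, and 13 were called and 6 lower in Reloading against Control.

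Leaving out 1 library at a time, Reloading against Unloading had 16 to 30 called, 3 to 4 higher and 13 to 26 lower, Unloading against Control 1 to 8 called, 1 to 7 higher and 0 to 1 lower, and Reloading against Control 12 to 25 called, 4 to 8 higher and 7 to 18 lower. The Rpl3l share difference of Reloading against Control lay between -11.1 and -10.3 percentage points, with fewer permutations possible. The length used moved that difference more, to -17.6 from raw counts and -17.8 per transcript base, the latter an alternative chosen after seeing the data, as were the alternatives given for Rplp0, Rplp1, Rpl22, Rps27l and named genes outside the members. Members with few uniquely placed reads, such as Rps10, Rpl24 and Rpl13a, had too few counts to show moderate changes, and intervals of counts cover counting error only.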
